A study of Mus musculus with 12 samples.

Results

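Lo-hi precursors and pre-cDCs sorted from the bone marrow of C57BL/6 mice were compared by bulk RNA sequencing, with 3 wells for each and thus 6 of the 12 wells of the series. Both populations came from lineage-depleted bone marrow of adult mice of this inbred strain and were gated as Flt3+ CD11c+. The lo-hi cells were Siglec-H+ CCR9lo B220hi, and the pre-cDCs were Siglec-H- B220- with low MHC II and low Sirp-α on their surface. The other 6 wells held Siglec-H+ CCR9lo B220lo cells (lo-lo) and CCR9hi B220hi pDCs, which entered the fit but are given here only as levels. The study's legend speaks of individual mice for each population, whereas its general methods describe sorting from pooled marrow of mice matched for sex and age. The labels name no treatment or modified allele for either group.

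The wells were assigned by a rank match, not by the deposited labels. Source data of the study hold variance-stabilised values of 28 transcription factors (TFs) in 12 named samples. The order of 378 pairs of these genes within each well matched exactly 1 named sample, with 0 pairs in another order, and every other sample had at least 7 pairs in another order. By this match, wells A1, A5 and A9 are pre-cDC 1, 2 and 3, and wells A3, A7 and A11 are lo-hi 1, 2 and 3. The deposited labels contradict this for 4 of the 6 wells and for 8 of all 12. A3 is labelled pre-cDC, A5 is labelled CCR9lo-B220lo, A9 is labelled CCR9lo-B220hi and A11 is labelled pDC. Label and match name the same population only for A1 (pre-cDC 1) and A7 (lo-hi 2). Values below are given in the order of replicates 1, 2 and 3, so that the well pair free of this conflict can be read from each sentence. Grouped by the deposited labels instead, edgeR called 0 genes at an adjusted p of 0.01, while 262 had an unadjusted p under 0.05, and no other tool was run for that grouping.

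Plasmacytoid dendritic cells (pDCs) sense nucleic acids through endosomal Toll-like receptors and secrete large amounts of type I interferon. Their identity rests on the E protein E2-2, which is opposed by the inhibitor Id2. Conventional dendritic cells (cDCs) take up, process and present antigen to T cells and arise from proliferating pre-cDCs, which leave the marrow and divide further in tissues. Lo-hi cells share Siglec-H and B220 with pDCs but have little of the chemokine receptor CCR9 on their surface.

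The totals ranged from 1801463 to 4454439 counts over the 6 wells, so that a floor of 3 counts came to between 0.673 and 1.67 per 1000000 counts in these wells, which covers counting error only. Mitochondrial transcripts took 3.002% to 12.3% of the counts in pre-cDC wells and 6.72% to 10.7% in lo-hi wells. The wells of replicate 3 had more Y-linked and less Xist RNA than those of replicates 1 and 2 in both populations. Ddx3y stood at 2.05, 0.992 and 19.6 counts per 1000000 (CPM, scaled by TMM) in pre-cDC 1, 2 and 3 and at 1.33, 3.62 and 47.4 CPM in lo-hi 1, 2 and 3. Only genes whose counts averaged 1 or more across the 12 wells were tested, which left 15293 of 21754. Just inside this limit were Sema4f and Cryba1 with 12 counts over all wells, and just outside it Gm8927 and Gm27336 with 11.

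The genes that chose the wells or the gates are given as a description only. Among the TFs of the match, Tcf4, which encodes E2-2, stood at 579, 727 and 352 CPM in pre-cDCs and at 2201, 2734 and 2619 CPM in lo-hi cells. Spib, another pDC factor, stood at 90.5, 96.2 and 84.5 CPM in pre-cDCs and at 406, 347 and 308 CPM in lo-hi cells. Id2 went the other way, with 50.6, 49.6 and 59.1 CPM in pre-cDCs and 16.3, 24.8 and 19.8 CPM in lo-hi cells. The cDC factors Batf3 and Zbtb46 lay in the same direction as Id2. Batf3 stood at 15.5, 17.4 and 21.6 CPM in pre-cDCs and between 0.442 and 1.1 CPM in lo-hi cells, below the floor. Zbtb46 served the study as a marker of cDC-committed cells. It stood at 23.1, 16.9 and 19.6 CPM in pre-cDCs and at 4.2, 4.14 and 7.72 CPM in lo-hi cells. The TFs named so far were picked after their values were seen. Of all 28 TFs, the lo-hi wells lay above the pre-cDC wells for 9 and below them for 11, and the rest overlapped. Over all 15293 tested genes these numbers were 2765 and 2309. Irf4, a cDC factor, and Zeb2, a pDC factor, overlapped between the groups, as did Irf2 and Irf3.

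Of the gate genes, Siglech stood at 276, 443 and 206 CPM in pre-cDCs and at 2039, 2367 and 1987 CPM in lo-hi cells. The Siglec-H-negative gate thus still held Siglech RNA. Ccr9 was at 32.8, 44.6 and 21.6 CPM in pre-cDCs and at 251, 221 and 219 CPM in lo-hi cells, although the lo-hi gate was low for the protein. Flt3 and Itgax (CD11c), required in both gates, overlapped between the groups, with Flt3 between 118 and 140 CPM in pre-cDCs and between 117 and 151 CPM in lo-hi cells. Whether a level in a sorted pool comes from more cells that express a gene or from more RNA in each cell cannot be told apart here or in any result below.

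Between lo-hi cells and pre-cDCs, 2001 of the 15293 genes (13.1%) passed an adjusted p of 0.01 (quasi-likelihood test of edgeR, p-values adjusted by Benjamini-Hochberg). Of these, 1034 were higher in lo-hi cells (6.76%) and 967 were lower (6.32%), and 1982 of the 2001 were neither TFs of the match nor gate genes. The fold was at least 2 for 759 of the higher and 680 of the lower genes, at least 4 for 278 and 183, and at least 8 for 56 and 48. The 3 wells of one group lay apart from the 3 of the other for 1996 of the called genes and overlapped for 5. Over all 15293 tested genes, called or not, the lo-hi wells lay above the pre-cDC wells for 2765 and below them for 2309. In the well pair whose labels fit the match (A7 over A1), all 1034 higher genes had a positive and all 967 lower genes a negative log2 difference, with medians of 1.30 and -1.29. Without lo-hi 1, the deepest well, 639 genes were lower instead of 967. These wells belong to both the full comparison and the pair, so that the pair is no separate evidence.

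**Figure D1:**
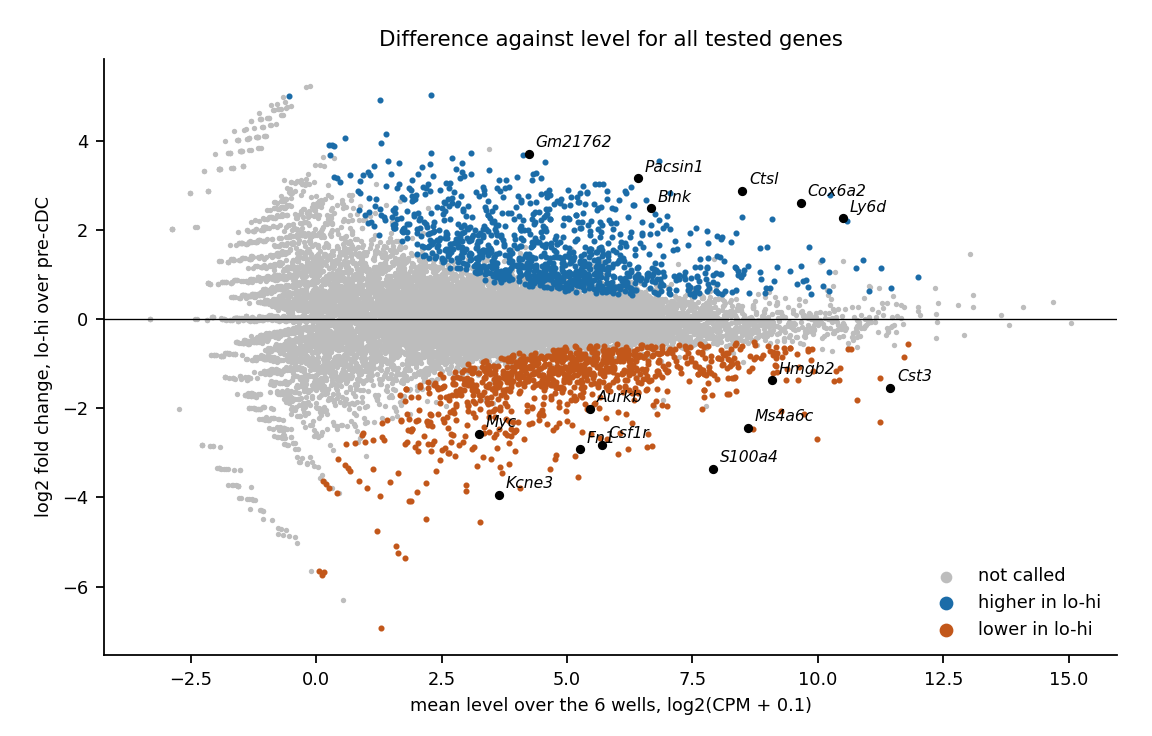
Log2 fold change of lo-hi cells over pre-cDCs (y axis) against the mean level over the 6 wells as log2(CPM + 0.1) (x axis) for the 15293 genes tested. Blue points are the 1034 genes called higher, orange points the 967 called lower, grey points were not called, and named genes are in black. Calls of at least 8-fold number 56 in the higher and 48 in the lower direction.

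pDC genes formed the list with the highest share of calls. Outside the TFs and gate genes, 24 of the 28 tested members were higher in lo-hi cells and 0 were lower. Called higher were thus 85.7% of the list and 6.76% of all genes. The median log2 fold change was 2.01, against 0.02 over all genes. The sum over the list was 4739 to 5080 CPM in pre-cDC wells and 10903 to 12502 CPM in lo-hi wells, against 12378 to 14869 CPM in pDC wells. Leaving out no single well moved this count by over 1.5 times.

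Cox6a2, a subunit of cytochrome c oxidase known from muscle and pDCs (chr7:128205435-128206387 on GRCm38), stood at 216, 271 and 198 CPM in pre-cDCs and at 1481, 1311 and 1377 CPM in lo-hi cells. It was 6.10-fold higher (log2 fold change 2.61 ± 0.16 SE, adjusted p = 1.67e-10). The lowest lo-hi well lay far above the highest pre-cDC well. Pacsin1, an adaptor of membrane trafficking that pDCs use for type I interferon responses, stood at 17.9, 21.8 and 12.5 CPM in pre-cDCs and at 176, 143 and 138 CPM in lo-hi cells. It was 8.91-fold higher (log2 fold change 3.15 ± 0.20 SE, adjusted p = 1.67e-10). Again no well of one group came near those of the other.

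Ly6d, which marks lymphoid progenitors with pDC potential (chr15:74762056-74763620 on GRCm38), stood at 519, 539 and 447 CPM in pre-cDCs and at 2523, 1928 and 2740 CPM in lo-hi cells. It was 4.78-fold higher (log2 fold change 2.26 ± 0.17 SE, adjusted p = 1.01e-09). Its mean in lo-lo cells, 2043 CPM, was close to the mean in pDCs, 2033 CPM, and both were below its mean in lo-hi cells. Atp1b1, a subunit of the sodium-potassium pump, rose from 40.1, 54.5 and 33.4 CPM to 225, 203 and 205 CPM (4.99-fold, adjusted p = 5.3e-10). Bst2, the interferon-inducible pDC surface protein also called tetherin, rose from 497, 484 and 361 CPM to 1554, 1419 and 1126 CPM (adjusted p = 1.01e-07). The 2 groups did not overlap for either gene.

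T cell coreceptor genes known from pDCs were also called. Cd4 stood at 11.7, 21.3 and 8.45 CPM in pre-cDCs and at 115, 109 and 68.9 CPM in lo-hi cells (adjusted p = 1.13e-05), with a mean of 245 CPM in pDCs. Cd8a stood at 8.49, 7.44 and 3.72 CPM in pre-cDCs and at 35.8, 30.01 and 38.0 CPM in lo-hi cells (adjusted p = 3.81e-07). The T and NK list had a median log2 fold change of 0.47, with 5 of 6 tested members positive, but 0 of the 6 passed in either direction in edgeR or in DESeq2's Wald and likelihood ratio tests, 1 had an unadjusted p under 0.05 in edgeR, and Cd3d stayed between 0.676 and 3.81 CPM in all 6 wells. Of the 4 pDC genes not called, Ly6c2 was the most abundant, at 2332, 2011 and 2260 CPM in pre-cDCs and 2590, 2375 and 2449 CPM in lo-hi cells (log2 fold change 0.17 ± 0.13 SE, adjusted p = 0.432). The other 3 were Upb1, Cbfa2t2 and Lag3.

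**Figure D2:**
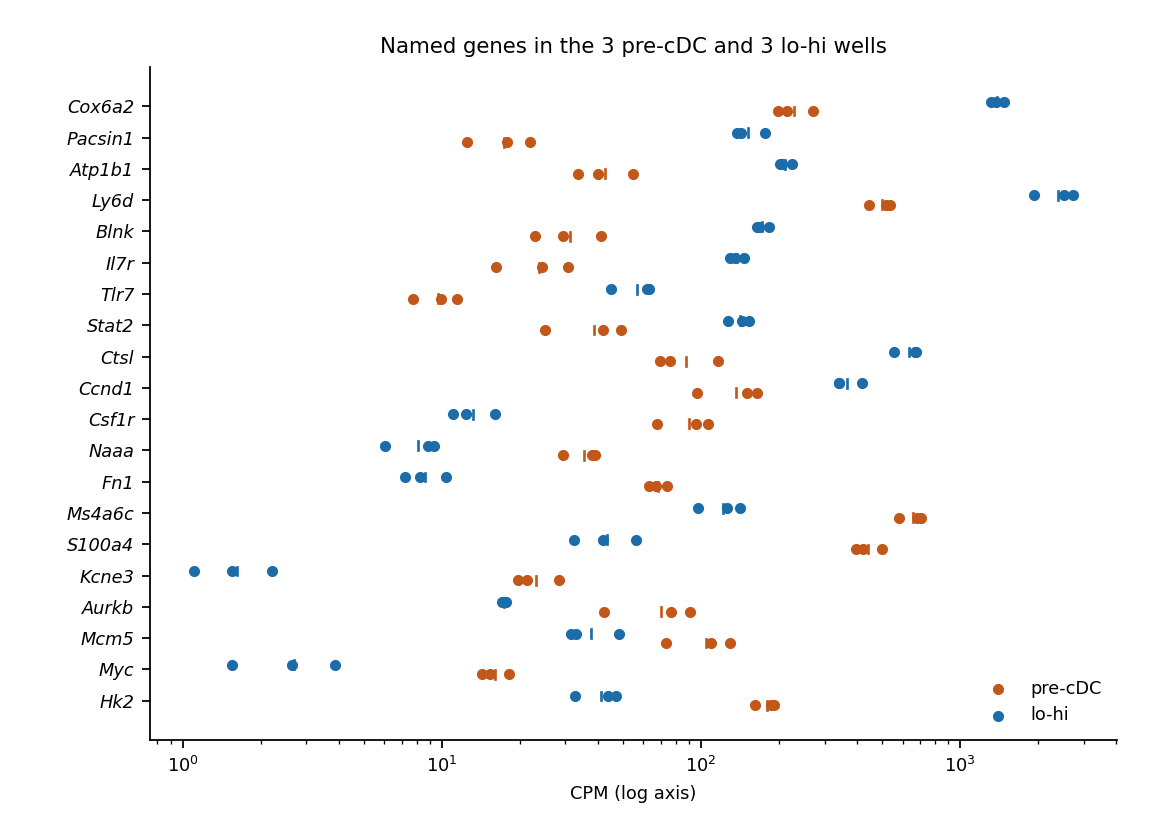
CPM on a log axis (x axis) of 20 named genes (y axis) in the 3 pre-cDC wells (orange) and the 3 lo-hi wells (blue), with 1 point a well and a vertical tick at the mean. The genes were picked for display after their values were seen. For each of the 20 genes the 3 wells of one population lie apart from the 3 of the other.

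Il7r and Blnk were higher in lo-hi cells, and most other B lymphoid genes were not called. Of 18 tested B lymphoid genes, 4 were higher (Il7r, Blnk, Blk and Ighm) and 1 was lower (Cd22), with a median log2 fold change of 0.57. These are 22.2% and 5.56%, against 6.76% higher and 6.32% lower over all genes. Il7r, the receptor chain for interleukin 7 on lymphoid progenitors, stood at 24.3, 30.7 and 16.2 CPM in pre-cDCs and at 135, 147 and 130 CPM in lo-hi cells (5.85-fold, log2 fold change 2.55 ± 0.20 SE, adjusted p = 1.12e-09). Blnk, the linker of B cell receptor signalling that also carries signals of pDC receptors, stood at 29.3, 41.2 and 23.0 CPM in pre-cDCs and at 183, 168 and 164 CPM in lo-hi cells (5.60-fold, log2 fold change 2.48 ± 0.19 SE, adjusted p = 8.42e-10). Both genes were apart in all wells.

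Cd79a, a defining B cell gene, did not exceed 2.2 CPM in any of the 6 wells. The summed level of the list was 619 to 794 CPM in pre-cDC wells and 1088 to 1210 CPM in lo-hi wells. The count of higher genes fell to 2 without lo-hi 3 or without pre-cDC 1, and the call of Cd22 was lost without lo-hi 1 or lo-hi 2. Of the partners and inhibitors of E2-2 that the match had not used, Tcf12, an E protein, rose from 34.0, 38.2 and 20.9 CPM to 80.4, 99.3 and 90.4 CPM (adjusted p = 7.32e-06). Id3, an inhibitor of E proteins, also rose, from 6.15, 5.45 and 8.78 CPM to 34.9, 15.5 and 29.8 CPM (adjusted p = 3.04e-05), in the direction opposite to Id2. Tcf3 and Id1, the other members of the list, were not called.

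Tlr7 was higher in lo-hi cells, and most other genes of Toll-like receptor sensing, like most of all genes, were not called. Of 12 tested genes of endosomal Toll-like receptor sensing, 3 were higher and 0 lower, with a median log2 fold change of 0.19. Called higher were thus 25% of this list and 6.76% of all genes. Tlr7, the receptor for single-stranded RNA on which pDCs rely (chrX:167304929-167330558 on GRCm38), stood at 9.95, 11.4 and 7.77 CPM in pre-cDCs and at 61.8, 63.1 and 45.2 CPM in lo-hi cells (5.93-fold, log2 fold change 2.57 ± 0.20 SE, adjusted p = 1.71e-09). The other higher genes were Tlr12 (2.19-fold, adjusted p = 7.79e-05) and Unc93b1, the chaperone that carries these receptors to endosomes (1.63-fold, adjusted p = 0.00099), whose call was lost without lo-hi 1. With the replicate number as a block, 5 of the 12 were higher.

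Tlr9, the receptor for unmethylated DNA, was at 0.878, 1.98 and 1.35 CPM in pre-cDCs and at 4.2, 7.24 and 2.2 CPM in lo-hi cells, and did not pass (adjusted p = 0.0144). Of 10 genes of surface Toll-like receptor sensing, 0 were higher and 3 lower, with a median log2 fold change of -0.78. Called lower were thus 30% of this list and 6.32% of all genes. Tlr2, a receptor for bacterial lipoproteins, fell from 21.4, 16.9 and 18.9 CPM to 6.63, 10.9 and 8.27 CPM (adjusted p = 0.000433). Ticam2, an adaptor of Tlr4, fell as well (2.96-fold lower, adjusted p = 0.00085), and Tlr1 had counts below the floor in every lo-hi well. None of these 3 calls held without lo-hi 1.

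Most interferon-stimulated genes, like most of all genes, were not called. Of 26 tested, 4 were higher (Stat2, Mx2 and Ifi44 among them) and 0 lower, with a median log2 fold change of 0.52, and 10 were higher with the replicate number as a block. The 4 calls made up 15.4% of the list, against 13.1% of all genes called in either direction and 6.76% called higher. Stat2, which carries signals from the type I interferon receptor, stood at 41.9, 49.1 and 25.0 CPM in pre-cDCs and at 144, 153 and 127 CPM in lo-hi cells (3.69-fold, log2 fold change 1.88 ± 0.20 SE, adjusted p = 9.23e-08). The count fell to 2 without lo-hi 1 and to 1 without lo-hi 2, pre-cDC 1 or pre-cDC 3. Rsad2 (viperin), a typical member that was not called, stood at 16.1, 30.7 and 3.72 CPM in pre-cDCs and at 23.6, 26.9 and 11.6 CPM in lo-hi cells, lowest in the replicate 3 well of both populations.

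Genes that load peptides on MHC II were split. The MHC II chains themselves were gate genes and are described only. H2-Aa stood at 641, 837 and 385 CPM in pre-cDCs and at 1830, 1482 and 1171 CPM in lo-hi cells. For H2-Ab1 and H2-Eb1, too, every lo-hi well lay above every pre-cDC well. Of 8 tested members 1 was higher (12.5%) and 2 were lower (25%), with a median log2 fold change of -0.01. Over all genes 6.76% were higher and 6.32% lower. H2-Oa, a chain of the DO complex that holds back peptide loading, stood at 19.9, 23.3 and 16.6 CPM in pre-cDCs and at 50.6, 49.1 and 43.0 CPM in lo-hi cells (2.42-fold, adjusted p = 1.76e-05). H2-DMb1, a chain of the DM complex that drives this loading, stood at 442, 335 and 435 CPM in pre-cDCs and at 240, 198 and 193 CPM in lo-hi cells (1.92-fold lower, adjusted p = 9.96e-05). H2-DMa, the partner of H2-DMb1, was 1.74-fold lower (adjusted p = 0.00201), and its call was lost when lo-hi 2, lo-hi 3, pre-cDC 1 or pre-cDC 3 was left out. Cd74, the invariant chain, was at 861, 1013 and 622 CPM in pre-cDCs and at 2831, 1885 and 1447 CPM in lo-hi cells, which did not pass (adjusted p = 0.0187) but did with the replicate number as a block, where 2 members were higher, as was the count without lo-hi 3.

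Lysosomal proteases and their inhibitors were called in opposite directions. Of 16 tested members, 3 were higher (18.75%) and 2 lower (12.5%), with a median log2 fold change of 0.11. Over all genes 6.76% were higher and 6.32% lower. Ctsl (cathepsin L, chr13:64359337-64370890 on GRCm38) stood at 76.1, 116 and 69.6 CPM in pre-cDCs and at 676, 669 and 554 CPM in lo-hi cells (7.31-fold, log2 fold change 2.87 ± 0.22 SE, adjusted p = 8.84e-09). Ctsb (cathepsin B) rose from 1033, 1273 and 990 CPM to 3065, 2543 and 2627 CPM (2.499-fold, adjusted p = 1.67e-07), and Ctso rose 4.11-fold (adjusted p = 4.53e-07). Ctss, the cathepsin that cuts the invariant chain in cDCs, overlapped between the groups (log2 fold change 0.08 ± 0.16 SE). The inhibitors went the other way. Cst3 (cystatin C), one of the most abundant transcripts of cDCs, stood at 4182, 3210 and 5025 CPM in pre-cDCs and at 1492, 1421 and 1373 CPM in lo-hi cells (2.90-fold lower, log2 fold change -1.53 ± 0.17 SE, adjusted p = 1.58e-07). Cst7, an inhibitor of cathepsins in immune cells, was 4.14-fold lower (adjusted p = 1.96e-05).

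Genes of the cDC lineage were called lower more often than higher. Of 23 tested members of the cDC and pre-cDC list, 11 were lower, 3 higher and 9 not called, with a median log2 fold change of -0.90. Csf1r, the receptor for macrophage colony-stimulating factor that marks common DC progenitors, stood at 95.4, 67.4 and 107 CPM in pre-cDCs and at 11.04, 12.4 and 15.98 CPM in lo-hi cells (7.05-fold lower, log2 fold change -2.82 ± 0.21 SE, adjusted p = 9.83e-10). Naaa, an amidase abundant in cDC1s, stood at 38.1, 29.3 and 39.2 CPM in pre-cDCs and at 8.83, 9.31 and 6.06 CPM in lo-hi cells (4.33-fold lower, adjusted p = 1.12e-07). Both genes were apart in all wells. Cd40, Cd86, Cd209a, Ccr2, Cx3cr1, Clec4a1, Cd93, Itgam and Fcgr2b were the other lower members.

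Not all members of the cDC and pre-cDC list followed this direction. Clec9a, which marks cDC1s and their precursors, stood at 38.4, 38.7 and 39.9 CPM in pre-cDCs and at 49.9, 41.9 and 34.7 CPM in lo-hi cells (log2 fold change 0.14 ± 0.17 SE, adjusted p = 0.656). The 3 higher members were C-type lectins. The study also names Clec10a among genes with high expression in mature pDCs, and its mean in the pDC wells was 186 CPM. Clec10a rose from 38.4, 63.0 and 40.9 CPM to 213, 183 and 186 CPM (4.14-fold, log2 fold change 2.05 ± 0.18 SE, adjusted p = 9.18e-09), and its neighbour Mgl2, a close paralog that could share reads with it, was 5.80-fold higher (adjusted p = 8.68e-06). Clec12a was 1.54-fold higher, and this call was lost in 5 of the 6 fits that left out 1 well. Batf and Wdfy4, which cDC1s need, overlapped between the groups.

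Monocyte and macrophage genes held 4 lower and 0 higher members of 12, with a median log2 fold change of -1.06. The lower share was 33.3%, against 6.32% of all genes. Ms4a6c, a membrane protein of monocytes and pre-cDCs, stood at 682, 582 and 707 CPM in pre-cDCs and at 97.6, 126 and 142 CPM in lo-hi cells (5.42-fold lower, log2 fold change -2.44 ± 0.16 SE, adjusted p = 2.3e-10). Fn1 (fibronectin) stood at 67.3, 63.0 and 74.0 CPM in pre-cDCs and at 10.4, 7.24 and 8.27 CPM in lo-hi cells (7.59-fold lower, adjusted p = 5.3e-10). F13a1, a subunit of coagulation factor XIII made by monocytes, was 6.48-fold lower (adjusted p = 3.34e-10). The defining macrophage gene Adgre1 was near the floor, at no more than 3.51 CPM in any of the 6 wells, and Lyz2 was at 1930, 1873 and 1840 CPM in pre-cDCs and at 1712, 952 and 956 CPM in lo-hi cells (adjusted p = 0.177). The summed level of the list was 3318 to 3569 CPM in pre-cDC wells and 1820 to 2749 CPM in lo-hi wells. The part that other myeloid cells in the gates had in these values was not tested.

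Granulocyte and erythroid genes were present at summed levels whose ranges overlapped between the groups. The 13 granulocyte granule genes summed to 4565 to 11863 CPM in pre-cDC wells and to 10150 to 21272 CPM in lo-hi wells, with 0 calls and a median log2 fold change of 0.56. S100a8, their most abundant member, stood at 5050, 4877 and 1921 CPM in pre-cDCs and at 9015, 5846 and 4413 CPM in lo-hi cells (adjusted p = 0.472). The 11 erythroid and megakaryocyte genes, mostly globin, summed to 4703 to 18517 CPM in pre-cDC wells and to 9165 to 11640 CPM in lo-hi wells, also with 0 calls. For both lists, edgeR gave 0 members with an unadjusted p under 0.05, and DESeq2's Wald and likelihood ratio tests also called 0. Of 13 progenitor genes, 2 were higher (15.4%) and 1 lower (7.69%), with a median log2 fold change of 0.31. Over all genes these shares were 6.76% and 6.32%. The sum over the 14 measured members was 379 to 471 CPM in pre-cDC wells and 576 to 773 CPM in lo-hi wells, which did not overlap. Cd34 was lower (5.51-fold, adjusted p = 8.99e-07) and Ly6a (Sca-1) higher (3.60-fold, adjusted p = 5.76e-05), while the call of Myb was lost in 5 of the 6 fits that left out 1 well.

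**Figure D3:**
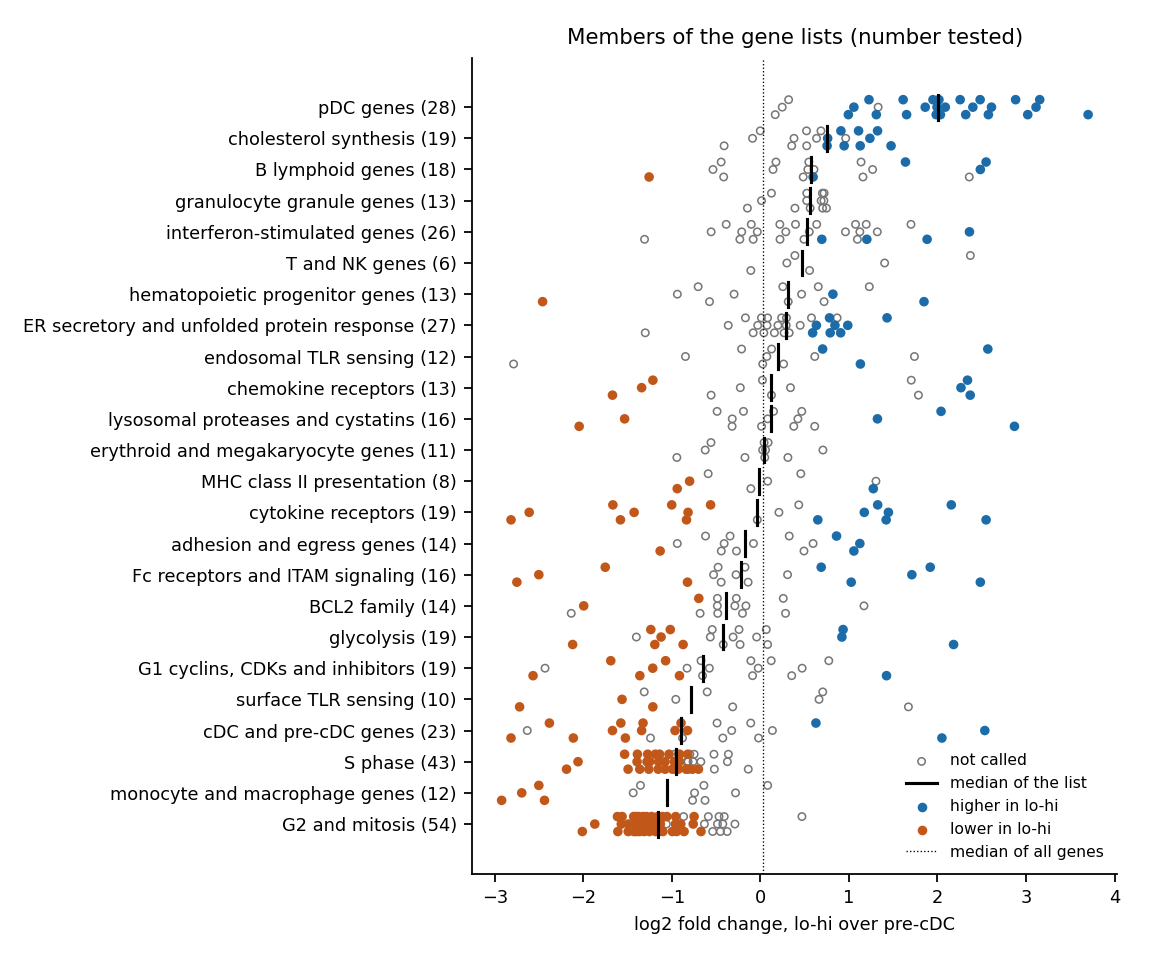
Log2 fold change of lo-hi cells over pre-cDCs (x axis) for the tested members of the gene lists (y axis, with the number tested), ordered by median. Filled points were called (blue higher, orange lower), open points were not, the black bar is the list median and the dotted line the median of all genes, 0.02. pDC genes stand at the top with a median of 2.01 and the G2 and mitosis genes at the bottom with -1.15, and the cytokine receptors have calls on both sides.

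Most proliferation genes were lower in lo-hi cells. In S phase, cells copy their DNA with a machinery of origin licensing factors, polymerases and nucleotide enzymes, and in G2 and mitosis they build the spindle and separate the chromosomes. Of 43 tested S phase genes, 30 were lower and 0 higher, with a median log2 fold change of -0.96. Of 54 G2 and mitosis genes, 41 were lower and 0 higher, with a median of -1.15. Called lower were thus 69.8% of the S phase list and 75.9% of the G2 and mitosis list, against 6.32% of all genes. Against a threshold of a log2 fold change of 1 (edgeR's glmTreat), 1 S phase gene and 1 G2 and mitosis gene passed. The S phase count was 18 without lo-hi 1 and 19 without pre-cDC 1.

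Mcm5, a subunit of the helicase that opens DNA at replication origins, stood at 109, 73.4 and 130 CPM in pre-cDCs and at 31.6, 33.1 and 48.5 CPM in lo-hi cells (2.82-fold lower, log2 fold change -1.50 ± 0.20 SE, adjusted p = 4.4e-06). Cdca7, a chromatin factor expressed in S phase, stood at 53.9, 34.7 and 45.3 CPM in pre-cDCs and at 13.5, 16.6 and 17.6 CPM in lo-hi cells (2.90-fold lower, log2 fold change -1.53 ± 0.20 SE, adjusted p = 2.21e-06). Neither gene overlapped between the groups. Gmnn (geminin), which blocks a second round of licensing, was 2.63-fold lower (adjusted p = 2.05e-05).

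Among mitotic genes, Aurkb, the kinase of the chromosomal passenger complex, stood at 76.7, 42.1 and 90.9 CPM in pre-cDCs and at 17.7, 17.6 and 17.1 CPM in lo-hi cells (4.03-fold lower, log2 fold change -2.01 ± 0.23 SE, adjusted p = 4.55e-07). Hmgb2, a chromatin protein of dividing cells, stood at 723, 693 and 932 CPM in pre-cDCs and at 322, 267 and 315 CPM in lo-hi cells (2.59-fold lower, adjusted p = 1.97e-07). Cenpa, the histone variant of centromeres, stood at 189, 146 and 237 CPM in pre-cDCs and at 60.3, 53.8 and 73.9 CPM in lo-hi cells (3.05-fold lower, adjusted p = 9.69e-07). The transcripts were therefore still well above the floor in lo-hi cells.

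Averaged over the 43 S phase genes, the level in log2(CPM + 1) was 5.16 ± 0.14 (SD, n = 3) in pre-cDCs and 4.23 ± 0.18 (SD, n = 3) in lo-hi cells. It was 5.34 ± 0.09 (SD, n = 3) in lo-lo cells and 3.49 ± 0.08 (SD, n = 3) in pDCs. Over the 54 G2 and mitosis genes it was 6.08 ± 0.10 (SD, n = 3) in pre-cDCs, 5.07 ± 0.12 (SD, n = 3) in lo-hi cells, 6.08 ± 0.04 (SD, n = 3) in lo-lo cells and 4.01 ± 0.12 (SD, n = 3) in pDCs. The lo-hi mean thus lay between those of pre-cDCs and pDCs for both lists. These averages describe chosen lists and carry no test.

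**Figure D4:**
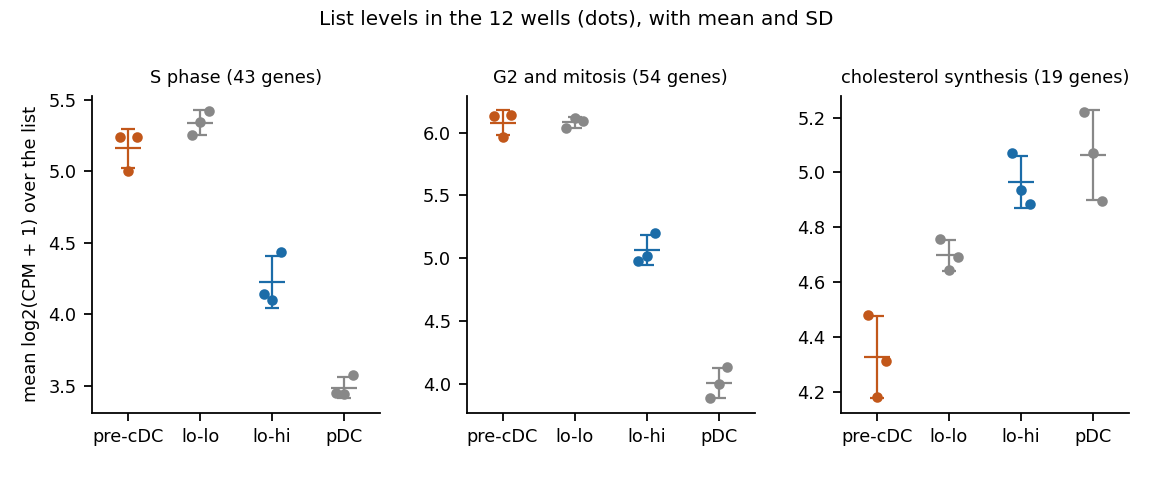
Mean log2(CPM + 1) over the genes of 3 lists (y axes, each with its own range that does not start at 0) in the 12 wells of the 4 populations (x axes), with 1 dot a well, the mean as a dash and the SD as bars. S phase and G2 and mitosis genes average 5.16 and 6.08 in pre-cDCs against 4.23 and 5.07 in lo-hi cells, and cholesterol synthesis genes 4.33 against 4.96.

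G1 regulators were mixed. Of 19 tested members, 6 were lower and 1 was higher, with a median log2 fold change of -0.65. The shares were 31.6% lower and 5.26% higher, against 6.32% and 6.76% of all genes. Myc, a driver of growth and cycle entry, stood at 14.3, 15.4 and 18.2 CPM in pre-cDCs and at 2.65, 1.55 and 3.86 CPM in lo-hi cells (5.93-fold lower, log2 fold change -2.57 ± 0.33 SE, adjusted p = 2.09e-06). The 3 D-type cyclins, which start the cycle in response to growth signals, were called in different directions. Ccnd1 rose from 150, 165 and 96.3 CPM to 342, 420 and 341 CPM (2.68-fold, adjusted p = 1.07e-06), whereas Ccnd2 fell from 107, 71.4 and 107 CPM to 42.8, 36.2 and 44.1 CPM (adjusted p = 2.25e-05). Ccnd3 was 2.10-fold lower (adjusted p = 6.23e-05). The inhibitor genes Cdkn1b, Cdkn2c and Cdkn2d were not called, and Cdkn1a was lower (adjusted p = 0.00318). In the BCL2 family the median log2 fold change was -0.39, with 14.3% of members called lower against 6.32% of all genes. Its member Pmaip1 (Noxa), which promotes cell death, fell from 29.3, 26.8 and 38.2 CPM to 7.73, 7.76 and 8.27 CPM (adjusted p = 2.86e-06), and Bak1 was the other member of 14 to be called, a call that was lost without lo-hi 1, lo-hi 2, pre-cDC 1 or pre-cDC 3.

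Promoters of these genes were searched for short motifs known from cell cycle genes. RefSeq promoter windows on GRCm38.p6, from 250 bases before to 50 bases after the listed start, were at hand for 10058 of the tested genes, and the first listed start of each gene was used. The search took both strands and counted a promoter once for each motif. E2F sites (TTTCCCGC, TTTGGCGC, TTTCGCGC or TTTGCCGC) were in 11 of 31 S phase promoters (35.5%), 2 of 47 G2 and mitosis promoters (4.26%) and 4.16% of all promoters. The cell cycle homology region (CHR, TTTGAA) was in 32 of 47 G2 and mitosis promoters (68.1%), 5 of 31 S phase promoters (16.1%) and 12.4% of all. The CCAAT box (CCAAT) was in 76.6% of G2 and mitosis promoters, 71.0% of S phase promoters and 39.0% of all. A match is a stretch of letters and does not show that a factor binds there. Shares of the lists take all members with a promoter, called or not. They describe the chosen lists and not the difference between lo-hi cells and pre-cDCs.

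Over all called genes with a promoter the shares were closer to the background. Among 654 genes called lower, 6.88% had an E2F site and 19.0% a CHR, against 1.74% and 10.96% among 748 genes called higher. The E-box letters of E proteins (CAGCTG or CACCTG) were in 35.2% of promoters called higher, 28.7% of those called lower and 29.5% of all. The promoters below are those of the called S phase genes with an E2F site and of the called G2 and mitosis genes with both a CHR and a CCAAT box that had the smallest adjusted p, 2 of each, all on the plus strand. They lie at chr2:72475969-72476268 (Cdca7), chr8:75109259-75109558 (Mcm5), chr8:57511593-57511892 (Hmgb2) and chr5:30666636-30666935 (Cenpa). Capitals mark the E2F sites in the first 2 and the CHR and CCAAT boxes in the last 2, on either strand. In Mcm5, 2 overlapping E2F sites form 1 run of capitals.
Cdca7: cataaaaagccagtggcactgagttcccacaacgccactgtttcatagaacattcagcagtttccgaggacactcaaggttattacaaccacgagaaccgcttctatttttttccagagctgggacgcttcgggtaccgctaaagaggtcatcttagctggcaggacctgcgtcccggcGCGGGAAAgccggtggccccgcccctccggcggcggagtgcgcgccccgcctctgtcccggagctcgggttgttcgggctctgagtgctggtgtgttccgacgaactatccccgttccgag
Mcm5: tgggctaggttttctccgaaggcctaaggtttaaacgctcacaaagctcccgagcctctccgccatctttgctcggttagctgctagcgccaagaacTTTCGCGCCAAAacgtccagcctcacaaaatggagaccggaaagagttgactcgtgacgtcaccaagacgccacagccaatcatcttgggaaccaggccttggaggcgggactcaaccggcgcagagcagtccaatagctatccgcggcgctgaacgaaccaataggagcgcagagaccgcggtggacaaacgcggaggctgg
Hmgb2: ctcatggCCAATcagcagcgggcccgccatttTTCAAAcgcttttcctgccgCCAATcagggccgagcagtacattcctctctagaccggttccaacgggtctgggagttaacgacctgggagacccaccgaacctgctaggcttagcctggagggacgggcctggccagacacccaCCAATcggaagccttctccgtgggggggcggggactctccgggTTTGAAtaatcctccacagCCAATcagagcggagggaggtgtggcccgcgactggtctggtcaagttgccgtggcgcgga
Cenpa: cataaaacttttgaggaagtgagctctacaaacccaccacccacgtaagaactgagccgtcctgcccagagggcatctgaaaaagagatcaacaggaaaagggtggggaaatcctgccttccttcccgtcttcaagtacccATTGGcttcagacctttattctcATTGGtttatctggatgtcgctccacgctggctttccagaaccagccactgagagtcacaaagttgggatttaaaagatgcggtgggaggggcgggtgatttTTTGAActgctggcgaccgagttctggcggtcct

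The E2F site of Cdca7 began 71 bases before the listed start and those of Mcm5 153 and 149 bases before it. Hmgb2 held CHR letters 218 and 30 bases before its start and 4 CCAAT boxes. Cenpa held its CHR 16 bases after the listed start, with CCAAT boxes 109 and 86 bases before it. The Stat2 promoter (chr10:128270248-128270547, plus strand), shown as the called interferon-stimulated gene with the core of the interferon response element (GAAANNGAA, capitals), held it on the minus strand 221 bases before the start. These letters were in 11 of 18 promoters of interferon-stimulated genes (61.1%) and in 7.45% of all promoters.
Stat2: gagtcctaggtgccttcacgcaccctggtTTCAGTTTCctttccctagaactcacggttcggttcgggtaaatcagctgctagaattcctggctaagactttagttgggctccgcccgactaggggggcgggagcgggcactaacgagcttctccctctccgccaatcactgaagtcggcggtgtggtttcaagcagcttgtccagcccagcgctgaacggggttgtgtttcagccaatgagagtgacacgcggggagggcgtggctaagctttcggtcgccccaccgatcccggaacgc

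**Figure D5:**
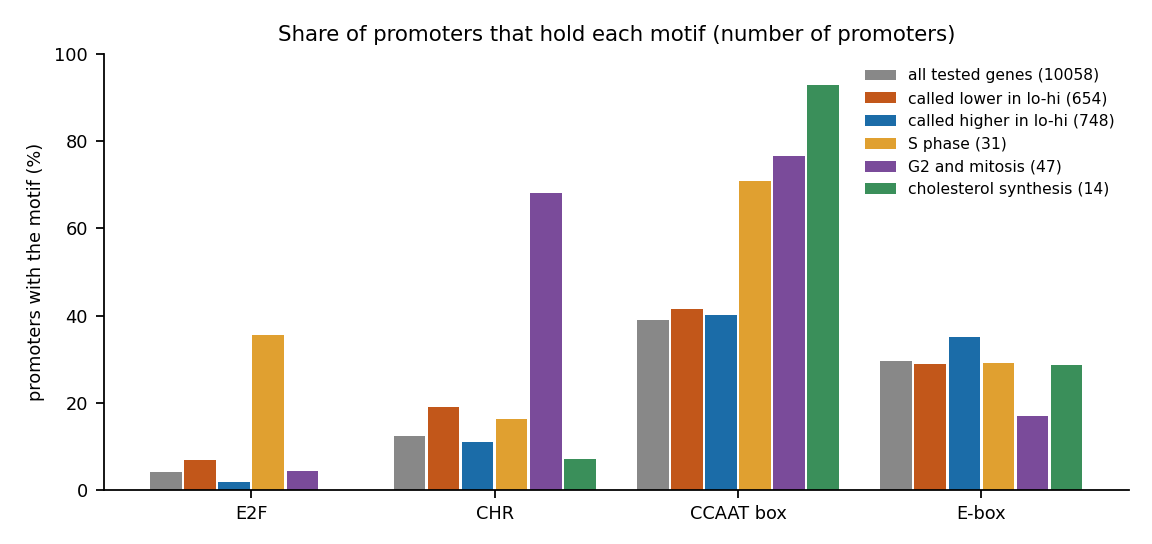
Share of RefSeq promoter windows of 300 bases that hold each motif on either strand (y axis, percent) for 4 motifs (x axis) in all tested genes, in the genes called lower and higher, and in 3 gene lists, with the number of promoters in the legend. CHR letters were in 68.1% of G2 and mitosis promoters against 12.4% of all, and E2F letters in 35.5% of S phase promoters against 4.16%. The bars of the lists take members called or not and do not compare lo-hi cells with pre-cDCs.

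Metabolic genes went in both directions. Of 19 cholesterol synthesis enzymes, 9 were higher and 0 lower, with a median log2 fold change of 0.75. Called higher were 47.4% of them, against 6.76% of all genes. Msmo1, a sterol oxidase of the pathway, stood at 37.5, 33.2 and 37.5 CPM in pre-cDCs and at 101, 79.7 and 73.3 CPM in lo-hi cells (2.36-fold, adjusted p = 1.83e-05). Pmvk, a kinase of the mevalonate branch, stood at 29.6, 29.3 and 34.8 CPM in pre-cDCs and at 65.8, 63.6 and 76.1 CPM in lo-hi cells (2.18-fold, adjusted p = 2.7e-05). The count fell to 3 without lo-hi 1 and to 4 without pre-cDC 3. DESeq2 called 7 by its Wald test and 3 by its likelihood ratio test, and 0 passed glmTreat. A CCAAT box was in 13 of 14 promoters of this list (92.9%).

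Of 19 glycolysis genes, 6 were lower and 3 higher, with a median log2 fold change of -0.42. The shares were 31.6% lower and 15.8% higher, against 6.32% and 6.76% of all genes. Hk2, a hexokinase that starts glycolysis in growing cells, stood at 191, 186 and 161 CPM in pre-cDCs and at 43.7, 32.6 and 46.8 CPM in lo-hi cells (4.35-fold lower, log2 fold change -2.12 ± 0.16 SE, adjusted p = 1.14e-09). Ldhb, the lactate dehydrogenase chain that favours use of lactate, stood at 14.6, 24.8 and 16.6 CPM in pre-cDCs and at 103, 72.9 and 69.4 CPM in lo-hi cells (4.54-fold higher, adjusted p = 1.94e-06). Ldha, the other main chain, was at 444, 322 and 440 CPM in pre-cDCs and at 284, 255 and 277 CPM in lo-hi cells and did not pass (adjusted p = 0.0218). Several enzymes of this list, such as Gapdh and Eno1, have many processed copies in the genome that could take part of their reads. The count of higher genes was 1 without lo-hi 1 or without pre-cDC 3.

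In the secretory pathway, 8 of 27 genes were higher and 0 lower, with a median log2 fold change of 0.29. The higher share was 29.6%, against 6.76% of all genes. Xbp1, the factor that expands the endoplasmic reticulum in secreting cells, stood at 109, 109 and 123 CPM in pre-cDCs and at 242, 207 and 188 CPM in lo-hi cells (1.87-fold, adjusted p = 0.000275). Herpud1, part of the degradation of misfolded proteins, rose from 153, 170 and 162 CPM to 352, 276 and 330 CPM (1.98-fold, adjusted p = 2.7e-05). Hspa5 (BiP), the main chaperone of the compartment, did not pass (log2 fold change 0.29 ± 0.14 SE, adjusted p = 0.155). The count was 4 without lo-hi 1, lo-hi 2, pre-cDC 1 or pre-cDC 3.

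Receptors for cytokines were called in both directions. Of 19 tested, 7 were higher and 9 lower, with a median log2 fold change of -0.04. That was 36.8% and 47.4%, against 6.76% and 6.32% of all genes. Beside Csf1r and Il7r, Il13ra1 stood at 21.1, 30.2 and 24.3 CPM in pre-cDCs and at 3.53, 5.17 and 3.86 CPM in lo-hi cells (6.12-fold lower, adjusted p = 1.4e-07). The receptor for GM-CSF was split between its chains. Csf2ra, which binds the cytokine, fell from 127, 103 and 159 CPM to 46.2, 33.1 and 42.4 CPM (adjusted p = 3.79e-07). The signalling chain Csf2rb rose from 71.4, 71.4 and 54.4 CPM to 190, 157 and 179 CPM (2.68-fold, adjusted p = 2.41e-07), as did its near-identical copy Csf2rb2 (4.46-fold, adjusted p = 1.21e-09), with which it could share reads.

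Receptor chains for the 2 kinds of interferon were also called in opposite directions. Ifnar1, a chain of the type I interferon receptor, stood at 52.7, 60.0 and 44.6 CPM in pre-cDCs and at 126, 115 and 111 CPM in lo-hi cells (2.25-fold, adjusted p = 5.46e-06). Ifngr1, a chain of the interferon gamma receptor, stood at 108, 89.7 and 144 CPM in pre-cDCs and at 48.6, 29.5 and 33.6 CPM in lo-hi cells (adjusted p = 2.09e-06). The second chains went the same way as their partners, with Ifnar2 higher (1.57-fold, adjusted p = 0.001, lost without pre-cDC 1) and Ifngr2 lower (adjusted p = 0.00869). Both chains of the TGF-β receptor, Tgfbr1 and Tgfbr2, were higher (2.504-fold and 2.72-fold).

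Chemokine receptors outside the gate gave 3 higher and 3 lower genes of 13, with a median log2 fold change of 0.12. Each direction held 23.1%, against 6.76% higher and 6.32% lower over all genes. Cxcr3 stood at 11.4, 12.9 and 9.46 CPM in pre-cDCs and at 59.2, 50.7 and 50.2 CPM in lo-hi cells (4.81-fold, adjusted p = 1.11e-06). This receptor guides cells to inflamed tissue. Ccr2, by which myeloid cells leave the marrow, fell from 444, 495 and 393 CPM to 109, 163 and 148 CPM (3.19-fold lower, adjusted p = 6.4e-06). Cxcr4, which holds cells in the marrow, did not pass (log2 fold change -0.56 ± 0.19 SE, adjusted p = 0.0404).

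Among adhesion genes 3 of 14 were higher and 1 was lower, with a median log2 fold change of -0.17, against 6.76% higher and 6.32% lower over all genes, and 2 were lower with the replicate block or without pre-cDC 2. Itgal, a chain of the integrin LFA-1, stood at 71.4, 70.9 and 58.4 CPM in pre-cDCs and at 171, 132 and 132 CPM in lo-hi cells (2.18-fold, adjusted p = 9.15e-06). Itgb7, an integrin chain for homing to the gut, fell from 287, 236 and 332 CPM to 132, 121 and 137 CPM (2.19-fold lower, adjusted p = 4.4e-06).

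Adaptors and kinases below Fc and lectin receptors were split as well. Of 16, 5 were higher and 4 lower, with a median log2 fold change of -0.23. These were 31.25% and 25%, against 6.76% and 6.32% of all genes. Card9, an adaptor of myeloid lectin receptors, stood at 10.8, 7.44 and 14.2 CPM in pre-cDCs and at 1.1, 1.55 and 2.76 CPM in lo-hi cells (6.73-fold lower, adjusted p = 9.81e-06). Its lo-hi wells held 5, 3 and 5 counts, at or near the floor. Fgr, a Src family kinase, rose from 47.1, 49.6 and 26.7 CPM to 150, 120 and 131 CPM (adjusted p = 2.34e-07). Tyrobp (DAP12), the adaptor through which Siglec-H signals, was 1.61-fold higher in lo-hi cells (log2 fold change 0.69 ± 0.14 SE, adjusted p = 0.000818).

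The 12 largest rises among called genes with a mean of at least 10 CPM over the 6 wells and no overlap were Gm21762, Cacna1e, D13Ertd608e, Iglv3, Nrxn2, Olfr164, Ccdc162, Tmem163, Pir, Pacsin1, Foxr1 and Klk1b3, from 8.71-fold to 13.01-fold. Cacna1e, a pore subunit of R-type calcium channels, stood at 2.05, 4.46 and 1.35 CPM in pre-cDCs and at 21.2, 49.7 and 25.4 CPM in lo-hi cells (12.7-fold, adjusted p = 0.00181), a call that was lost without pre-cDC 1 or pre-cDC 3. Nrxn2, a neurexin of synapses, stood at 1.46, 2.98 and 1.69 CPM in pre-cDCs and at 22.3, 24.3 and 11.6 CPM in lo-hi cells (10.1-fold, adjusted p = 1.81e-07). Pir, an iron-binding nuclear protein, rose from 4.98, 4.96 and 3.72 CPM to 53.0, 41.9 and 25.4 CPM (9.02-fold, adjusted p = 1.23e-07). All 12 had a higher mean CPM in pDCs than in lo-hi cells. Gm21762, D13Ertd608e, Iglv3, Olfr164 and Klk1b3 belong to families or repeats of similar copies, so that their reads may be split or shared, and the call of Olfr164 was lost without pre-cDC 3.

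The 12 largest falls by the same rule were Kcne3, Tppp3, Pid1, Pik3r6, S100a4, Ckb, Met, Adora2b, Cd300lg, Sgk1, Pak1 and Snx21, from 8.28-fold to 15.3-fold. Kcne3, a potassium channel subunit, stood at 19.6, 21.3 and 28.4 CPM in pre-cDCs and at 1.1, 1.55 and 2.2 CPM in lo-hi cells (15.3-fold lower, adjusted p = 9.39e-09). S100a4, a calcium-binding protein of motile myeloid cells, was the most abundant of them, at 420, 398 and 501 CPM in pre-cDCs and at 32.5, 41.9 and 56.2 CPM in lo-hi cells (10.3-fold lower, log2 fold change -3.36 ± 0.24 SE, adjusted p = 1.9e-09). Met, the receptor for hepatocyte growth factor, fell from 26.6, 17.9 and 24.0 CPM to 2.43, 2.07 and 2.2 CPM (9.96-fold lower, adjusted p = 1.09e-08). Pid1, an adaptor that dampens insulin signalling, fell from 70.0, 58.5 and 76.0 CPM to 4.64, 6.21 and 7.72 CPM (11.7-fold lower, adjusted p = 3.22e-10). For S100a4 the mean in lo-lo cells was 82.1 CPM and in pDCs 28.7 CPM. In all 12 genes the lowest pre-cDC well was above the highest lo-hi well, which the rule required. Some folds rest on few counts. In lo-hi 1, 2 and 3, Kcne3 had 5, 3 and 4 counts, Tppp3 had 9, 6 and 3, and Sgk1 had 12, 1 and 6. The floor was 3 counts.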

How the data were processed

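Bulk SCRB-seq, which reads barcoded 3′ ends of polyadenylated RNA, gave 1 count table of 12 wells. The authors aligned reads with STAR 2.5.2b to mm10 within zUMIs and deposited whole-number counts per Ensembl gene, not normalised. Whether these counts are reads or unique molecules was not given in the sources used here. Gene symbols and positions came from GENCODE on GRCm38, which named 21410 of the 21754 genes. Promoters came from RefSeq.

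Wells were assigned by the rank match. The members and the gene lists were chosen with earlier results of these data known. Genes whose counts averaged 1 or more across the 12 wells were tested with edgeR 4.0.16 (limma 3.58.1, R 4.3.3) by its quasi-likelihood test after TMM scaling. All 4 populations shared 1 estimate of the spread, without a block, and p-values were adjusted by Benjamini-Hochberg over 15293 genes with a cutoff of 0.01. CPM, log2 fold changes, SEs and p-values in the text were computed from the deposited counts. DESeq2 1.42.0, other scalings and filters, the deposited labels, thinned counts, a replicate block and fits without each well were alternatives. Counts were also simulated for this comparison with 15293 genes. Of genes with a log2 change of 1, 60 of 100 were called, and of those with a change of 2, 99 of 100. Of 15093 unchanged genes, 9 were called. The changed genes were drawn only from those with a mean of at least 10 CPM over the 12 wells. Recovery of changes in genes below that level was not tested.

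Named genes were the 12 largest rises and falls among called genes with at least 10 CPM over the 6 wells and no overlap. From each list, only the few called members with the smallest adjusted p were added, and those called against most of their list. Some genes that this rule names are not reported here. Other genes given by name, such as members not called and further called members, were chosen after their values were seen. Replicate numbers were taken as a possible pairing of the wells. Deviations from the group means of same-numbered lo-hi and pre-cDC wells correlated with r of 0.21, 0.40 and 0.17 over 7824 genes. The mean was -0.13 for 6 pairs of unlike number. Deviations within a group cancel out, so that this opposite sign follows by arithmetic and is no separate evidence. Lo-hi 1 with pre-cDC 3 had r of 0.1714, above the 0.1668 of lo-hi 3 with pre-cDC 3. This pairing comes from the data and from the order of wells. The labels do not name separate mice for the wells. The sex-linked RNA sets the wells of replicate 3 apart from the others, and whether replicates 1 and 2 came from separate mice was not tested, so that part of the spread behind the p-values may be technical.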

Additional observations from a re-analysis of the deposited data

How the results depend on the processing

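The main count of 2001 genes stayed within 1.5 times under DESeq2's Wald test (1870) and likelihood ratio test (1576), DESeq2 size factors, upper-quartile scaling, both filters, the 6 wells alone and counts thinned to the smallest total (1710), and no shared call changed sign under these. A replicate block gave 2482 calls, all 2001 among them. Counts changed for the lists named with their blocked counts and for others. Among those, lower G2 and mitosis genes went from 41 to 44 and lower glycolysis genes from 6 to 8. Higher secretory pathway genes went from 8 to 10. Against a log2 fold change of 1 (glmTreat), 411 genes passed, 255 higher and 156 lower. At an adjusted p of 0.05, 3063 passed, 1599 higher and 1464 lower. Leaving out 1 well gave 1378 to 2340 calls, 712 to 1084 higher and 639 to 1256 lower. Of 106 genes named by the rule, 20 lost their call in at least 1 such fit. Other called genes given in the text, such as Bst2, Cd4 and Ifngr2, were not part of that count.

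Grouped by the deposited labels, 0 genes were called, 0 higher and 0 lower, and 21 named genes changed sign on the log2 scale: Kcne3 0.56, Tppp3 0.30, Pid1 0.029, S100a4 0.14, Pak1 0.072, Snx21 0.52, Ly6d -0.34, Myc 0.069, H2-DMb1 0.10, Ticam2 0.18, Blk -0.89, F13a1 0.051, Cd34 0.26, Myb -0.45, Itgb7 0.11, Il13ra1 0.090, Card9 0.17, Eno1 0.00591, Hsd17b7 -0.10, Cst3 0.15 and Pmaip1 0.12. Every result rests on the rank match. With 3 wells a group, 60 of 100 simulated 2-fold changes in genes of at least 10 CPM were called. A gene not called is thus not shown to be equal.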
